A study of Arabidopsis thaliana with 6 samples.

Results

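AT5G66600 and 8 other *Arabidopsis* loci whose products share the DUF547 domain were followed in arrays of *OsbHLH068*-overexpressing transformants and Col-0. AT5G66600 was chosen by its log2 fold change in these same arrays, and the other loci were added for their domain. The transcript accessions on the array were matched to the loci through a RefSeq table, which gave 10 probes for 8 of the 9 loci, among 43603 probes in all. AT1G16750 and AT5G47380 had 2 probes each, 6 loci had 1 each, and no probe was matched to AT2G39690, which is therefore not analysed here. Neither the array files nor the RefSeq table names the domain, so membership was taken from the list of loci and could not be checked in the data.

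Shoots were sampled at 17 days of age. The 3 arrays labelled OsbHLH068OE held *35S::OsbHLH068* (9), a line of the Col-0 background in which the constitutive CaMV 35S promoter drives a rice bHLH transcription factor gene. The 3 arrays of Col-0 held the untransformed wild type. The paper describes the transgenic line as flowering later than the wild type. The groups were thus matched by age and not by flowering stage. The part of flowering stage in the differences given below was not tested. Each array was labelled with Cy3 alone, and the series describes its replicates as biological repeats. This was the only transgenic line hybridized, no probe for the rice transgene was examined, and the methods state that labelled cRNA was pooled without naming what was combined. One slide carried replicate 1 of each group, and another carried replicates 2 and 3 of each.

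DUF547 is a conserved domain of unknown function found in many plant proteins. A number of these proteins also carry a leucine-zipper region named after MIP1, a protein of snapdragon that binds MADS-box transcription factors. The files and tables used here assign no function to any of the loci, and they are described by their levels. The comparison asked whether the large difference of AT5G66600 was shared by the other genes with this domain.

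AT5G66600 was read by a single probe, A_84_P504436, designed on the transcript NM_126058. The RefSeq table gives this gene 15 transcripts, and which of them the probe matches, and whether it lies in coding sequence, was not analysed here. The probe is shown because the value of AT5G66600 rests on these bases alone. It is 60 bases long, with 22 G or C bases (36.7%), and is printed from 5′ to 3′ in lower case throughout, since no part of it was singled out.
A_84_P504436: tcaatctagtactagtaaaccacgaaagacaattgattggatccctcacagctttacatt

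The log2 signal of AT5G66600 was 13.98, 13.65 and 13.67 in *OsbHLH068*-overexpressing transformants and 8.68, 8.60 and 8.47 in Col-0. The groups did not overlap, and the lowest transformant stood 4.97 above the highest Col-0 array. The means were 13.76 ± 0.18 in the transformants and 8.58 ± 0.11 in Col-0 (SD, n = 3 each). The log2 fold change was 5.18, or 36.3-fold. As the gene was chosen for this difference, no test is given. On a linear scale and before any correction, its spots had median signals of 14316, 12492 and 13268 intensity units in the transformants, against 482, 487 and 389 in Col-0, over a local background between 30.0 and 34.0 units. The spot was well above background, as called by the scanner software, on 3 of 3 arrays of each group, so the gene was detected in Col-0 too. In bulk tissue, more cells that express a gene and more RNA per cell cannot be told apart.

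The difference in AT5G66600 was 5.30 on the slide that held replicate 1 and 5.12 on the slide that held replicates 2 and 3. Over all 9 pairings of a transformant with a Col-0 array it lay between 4.97 and 5.51. Among the measured log2 fold changes of the 43603 probes it had the highest value. The probe in the next place, for AT1G05240, had a measured value of 5.06, but its signal stood clear of background in none of the Col-0 arrays (0 of 3). Its own change thus has only a lower bound, and the 2 genes cannot be put in order. The same limit holds for A_84_P857102 in place 3 (4.48, 0 of 3 Col-0 arrays). The probe of AT4G39340 in place 4 (3.39) stood clear in 1 of 3. The first place of AT5G66600 therefore holds for measured values only.

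**Figure D1:**
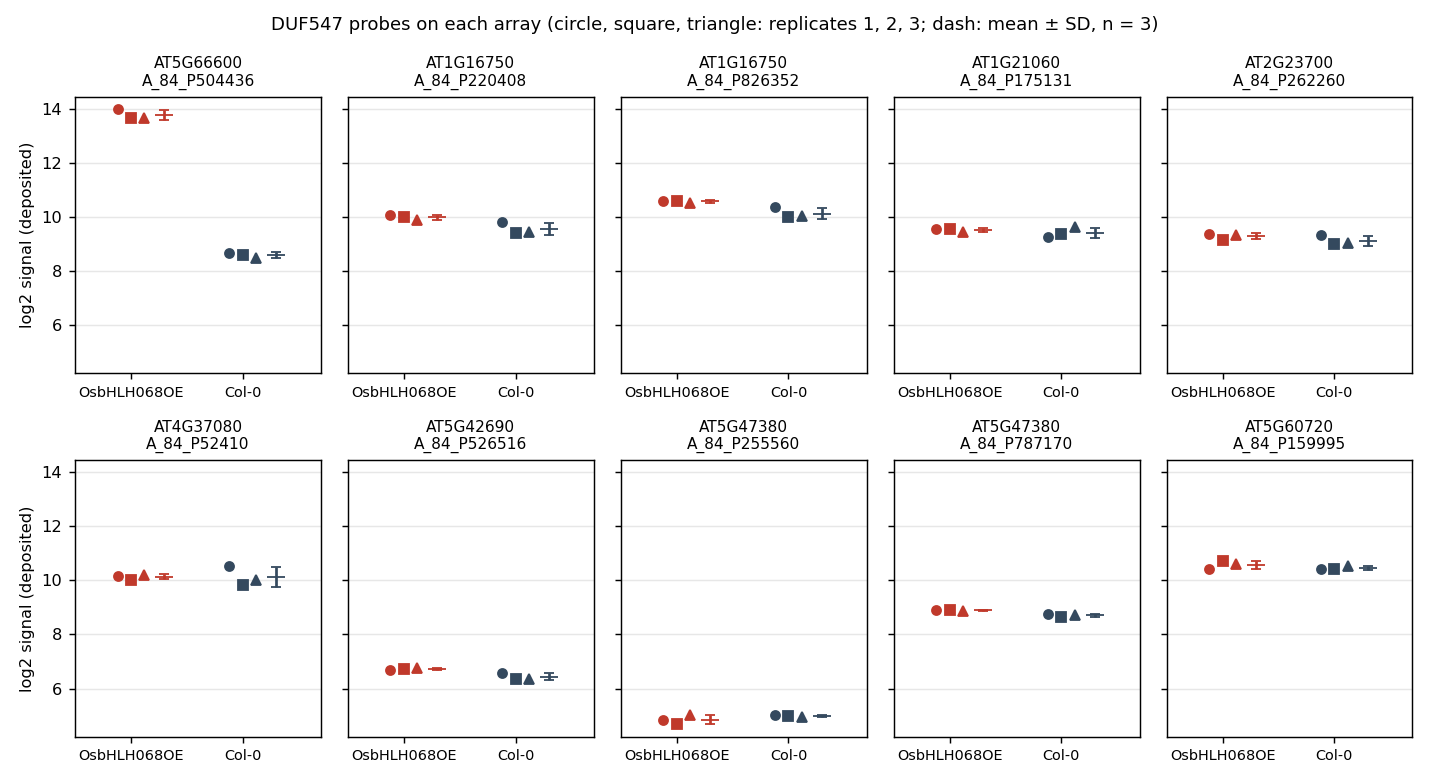
Deposited log2 signal (y axis) of each DUF547 probe on the 3 OsbHLH068OE arrays and the 3 Col-0 arrays, 1 panel per probe, with the mean and SD beside the points. AT5G66600 averages 13.76 in OsbHLH068OE and 8.58 in Col-0, while in the other 9 panels the means of the groups lie within 0.45 of each other.

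None of the 9 probes for the 7 other loci with a probe showed a difference of that size. A differentially expressed probe (DEP) had a change beyond 1 on the log2 scale in either direction and an unadjusted P under 0.05, which was limma's in place of that from the methods' t-test. By this rule 0 of the 9 probes were DEPs, and 1.17% of all probes were (0.378% higher in the transformants). With P from the methods' t-test 0 of the 9 were DEPs, and 396 of all probes (0.908%) were. Without Col-0 replicate 1 the DEPs over all probes numbered 1060, against 509 with all arrays, and 0 of the 9 were among them. Their log2 fold changes ran from −0.14 to 0.45. The median was 0.16, beside a median of 0.018 over all probes. The unadjusted 95% interval of each of the 9 lay entirely between −1 and 1, and the highest upper bound was 0.75, or 1.68-fold, for AT1G16750.

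After Benjamini-Hochberg adjustment over all probes, 0 of the 9 had a limma P under 0.05, and the lowest was 0.137. Over all probes 230 (0.527%) had one, a count that ranged over 1 to 2684 as single arrays were omitted. An unadjusted limma P under 0.05 was found for 4 of the 9 probes, and for 19.8% of all probes. These were the 2 probes of AT1G16750, which read 1 transcript, that of AT5G42690 and A_84_P787170 of AT5G47380. The 4 are therefore not independent readings. The methods' t-test also gave an unadjusted P under 0.05 for 4 of the 9, and for 18.5% of all probes. The groups did not overlap in 4 of the 9 probes, all higher in the transformants, where 27.0% of all probes had no overlap (14.7% higher). They were the same 4 that had an unadjusted limma P under 0.05. In each of these 4 the two-sided exact permutation test gave p = 0.1, the smallest that 3 arrays against 3 allow. Groups without overlap always give this value, so it adds nothing to the count.

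**Figure D2:**
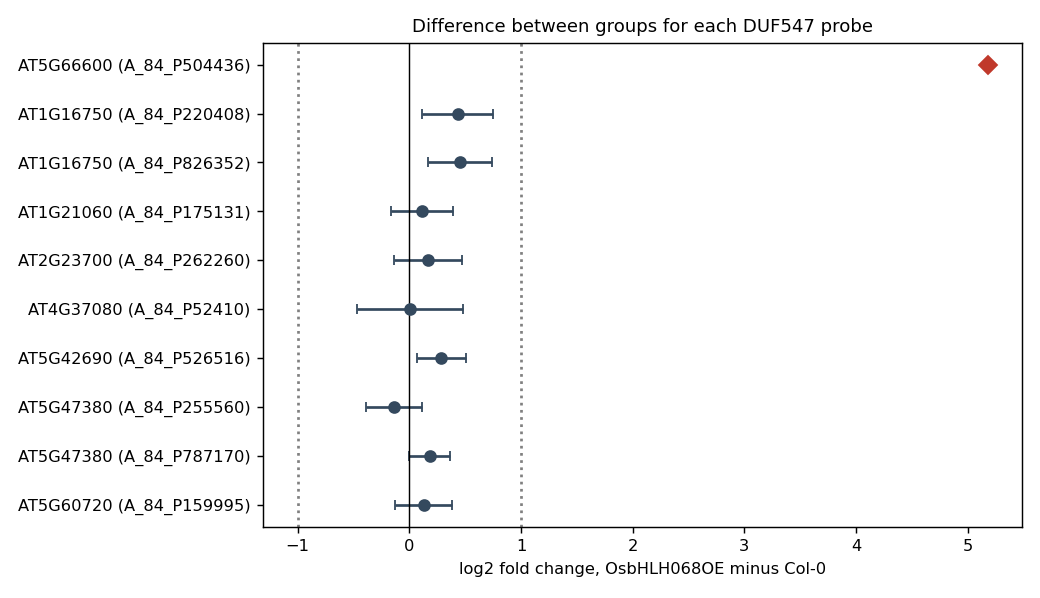
Log2 fold change of each DUF547 probe (x axis), OsbHLH068OE minus Col-0. Points of the other loci carry unadjusted 95% limma intervals, the diamond of AT5G66600 is shown without one because the gene was chosen for this value, and dotted lines mark the fold thresholds of −1 and 1. The 9 intervals end at or below 0.75, and AT5G66600 stands at 5.18.

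AT1G16750 had the largest differences among the other loci, and its 2 probes gave nearly the same one. Its probe A_84_P826352 had log2 signals of 10.60, 10.60 and 10.51 in *OsbHLH068*-overexpressing transformants and 10.35, 9.98 and 10.03 in Col-0. All 3 transformants were above all 3 Col-0 arrays, by least over Col-0 replicate 1. The log2 difference was 0.45 (standard error 0.118, limma adjusted P = 0.137), or 1.37-fold. Its other probe, A_84_P220408, had 10.05, 10.01 and 9.88 in the transformants and 9.80, 9.40 and 9.44 in Col-0. These values did not overlap either, and the log2 difference was 0.43 (standard error 0.129, limma adjusted P = 0.168). On the slide of replicate 1 the 2 probes differed by 0.25 and 0.26, and on the slide of replicates 2 and 3 by 0.55 and 0.52, in the same order. When Col-0 replicate 1 was omitted, both differences were 0.56, with limma adjusted P of 0.0398 and 0.0436, the only array whose omission brought them under 0.05.

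AT5G42690 was measured by a probe of lower signal, with 6.68, 6.72 and 6.77 in the transformants and 6.58, 6.37 and 6.37 in Col-0. Its groups did not overlap, and Col-0 replicate 1 was again the array nearest to the transformants. The log2 difference was 0.29 (standard error 0.0900, limma adjusted P = 0.180). It was 0.11 on the slide of replicate 1 and 0.37 on the slide of replicates 2 and 3, and 0.18 over all arrays without background correction.

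AT5G47380 had 2 probes on the same transcript accession, and they went opposite ways. The brighter, A_84_P787170, gave 8.89, 8.90 and 8.88 in the transformants and 8.76, 8.64 and 8.73 in Col-0, without overlap. The difference was 0.18 on the log2 scale (standard error 0.0736, limma adjusted P = 0.251). The dim probe, A_84_P255560, was well above background on 1 of 3 arrays of the transformants and 3 of 3 of Col-0, with 4.83, 4.69 and 5.01 in the transformants and 5.02, 4.99 and 4.94 in Col-0. Here the groups overlapped, and the log2 difference was −0.14 (standard error 0.104, limma adjusted P = 0.497). Without background correction it was 0.013, so its direction depended on the processing.

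The remaining 4 loci had a single probe each, and their groups overlapped. The probe of AT1G21060 had 9.54, 9.57 and 9.44 in the transformants and 9.25, 9.36 and 9.61 in Col-0, a log2 difference of 0.11 (95% interval −0.17 to 0.39). For AT2G23700 the values were 9.37, 9.15 and 9.34 in the transformants and 9.34, 9.01 and 9.02 in Col-0, a log2 difference of 0.16 (95% interval −0.14 to 0.47). AT5G60720 had 10.41, 10.71 and 10.61 in the transformants and 10.40, 10.41 and 10.54 in Col-0, a log2 difference of 0.13 (95% interval −0.13 to 0.39). In these 3 loci the highest Col-0 array reached above the lowest transformant. AT4G37080 was the most variable in Col-0, where its values were 10.54, 9.83 and 9.99, against 10.16, 10.02 and 10.20 in the transformants. Its log2 fold change was 0.005 (95% interval −0.47 to 0.48), with −0.39 on the slide of replicate 1 and 0.20 on the slide of replicates 2 and 3. The limma adjusted P of these 4 probes lay between 0.499 and 0.990. On omission of single arrays the difference ranged over 0.031 (without Col-0 replicate 1) to 0.21 (without Col-0 replicate 3) in AT1G21060, 0.11 (without Col-0 replicate 2) to 0.27 (without Col-0 replicate 1) in AT2G23700, and 0.060 (without OsbHLH068OE replicate 2) to 0.21 (without OsbHLH068OE replicate 1) in AT5G60720.

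**Figure D3:**
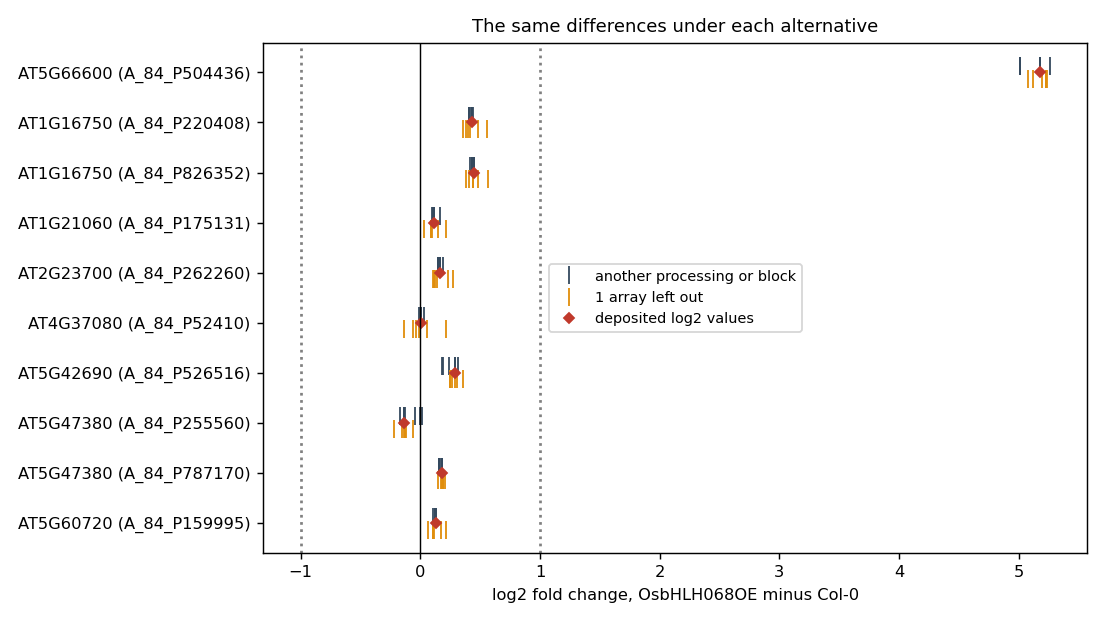
Log2 fold change of each DUF547 probe, OsbHLH068OE minus Col-0 (x axis), from the deposited values (diamonds), under another processing or block (dark ticks) and with 1 array left out (orange ticks). Dotted lines mark −1 and 1. AT5G66600 lies between 5.01 and 5.26 over the 16 alternatives, and the other probes do not exceed 0.56.

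The difference in AT5G66600 was also set beside those of the genes around it on chromosome 5. Of the 5 genes on each side in the order of the RefSeq table, 4 had a probe. They were *PSBO1*, which encodes the oxygen-evolving complex protein of photosystem II that stabilizes manganese, AT5G66580, AT5G66590, and *DAR7*, a member of the DA1-related family. The 8 probes of these 4 genes had log2 fold changes from −1.03 to 0.07, and 7 of them were below 0. Over all 43603 probes, 20565 were below 0. *PSBO1* and *DAR7* had several probes each, so the 8 are not independent readings. The 7 include the *DAR7* probe A_84_P835075, whose signal was near background.

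AT5G66590, which directly precedes AT5G66600 in that order and is annotated as an allergen V5/Tpx-1-related protein, was lower in the transformants. Its log2 signal was 10.26, 10.33 and 10.53 in *OsbHLH068*-overexpressing transformants and 11.60, 11.25 and 11.35 in Col-0. The groups did not overlap, and the log2 difference was −1.03 (standard error 0.129, limma adjusted P = 0.0467), or 2.04-fold lower. It was −1.35 on the slide of replicate 1 and −0.87 on the slide of replicates 2 and 3. The adjusted P was 0.0393 without Col-0 replicate 1 and ranged over 0.0892 to 0.230 on omission of any of the other 5 arrays. On omission of OsbHLH068OE replicate 1 the difference was −0.97, and on omission of Col-0 replicate 1 it was −0.93, both under the fold threshold for a DEP. A link between the fall of this gene and the level of AT5G66600 was not tested.

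Beyond AT5G66590 on the same side of AT5G66600, AT5G66580 had log2 signals of 10.03 ± 0.05 in the transformants and 10.06 ± 0.16 in Col-0 (SD, n = 3 each). The 3 probes of *PSBO1* had log2 fold changes of −0.06, −0.05 and 0.07. On the other side of AT5G66600, *DAR7* had 2 probes that were well above background on every array. They had log2 fold changes of −0.30 and −0.14 (limma adjusted P = 0.414 and 0.367). The first of these was −0.092 when Col-0 replicate 1 was omitted and −0.45 when Col-0 replicate 3 was. The third was well above background on 0 of 3 arrays of the transformants and on 1 of 3 of Col-0, with measured means of 4.15 in the transformants and 4.62 in Col-0. When the 5 nearest genes with a probe on each side were taken in place of the 5 nearest genes, a choice made after the values were seen, 14 probes of 10 genes were covered. Of these, 3 were higher and 11 were lower, A_84_P835075 among the 11, with a median log2 fold change of −0.10. Over all 43603 probes, 23038 were higher and 20565 were lower. By gene, 7 of the 10 were lower in every probe and 2 were higher in every probe. Only AT5G66590 among the 10 genes was a DEP, and the highest upper bound of their 95% intervals was 0.35.

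**Figure D4:**
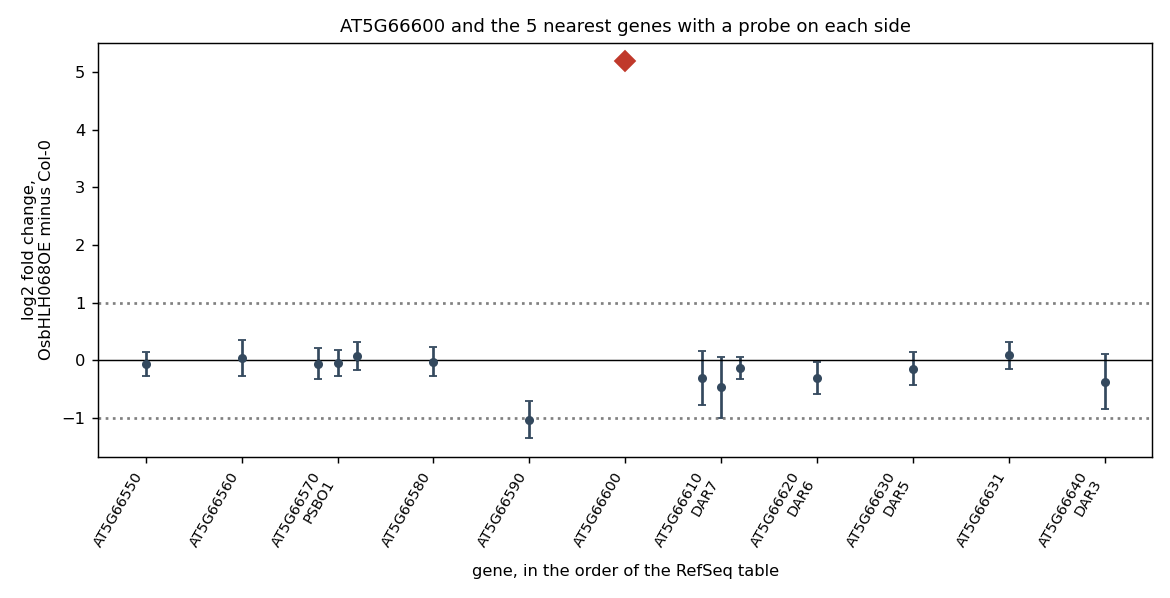
Log2 fold change, OsbHLH068OE minus Col-0 (y axis), of AT5G66600 (diamond) and of the 5 nearest genes with a probe on each side in RefSeq order (x axis), with a point and an unadjusted 95% limma interval for each probe. Dotted lines mark −1 and 1. Genes without a probe are left out of the order, among them those between AT5G66600 and *DAR7*. AT5G66590 lies at −1.03, the other neighbors lie between −0.47 and 0.09, and AT5G66600 stands at 5.18. The −0.47 belongs to the *DAR7* probe A_84_P835075, which was well above background on 0 of 3 arrays of OsbHLH068OE and 1 of 3 of Col-0.

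The genes most like AT5G66600 over the 6 arrays were found by Pearson's r among 27065 probes that had a gene and were well above background throughout 1 group or both. The first 5 were AT1G51440 (r = 0.999), AT2G24800, a peroxidase (r = 0.999), *GDH3*, a glutamate dehydrogenase (r = 0.998), *ALDH3I1*, an aldehyde dehydrogenase (r = 0.997), and AT5G28919 (r = 0.997). The log2 fold change was 0.95 for AT1G51440, 1.08 for *GDH3*, 0.21 for *ALDH3I1* and 0.35 for AT5G28919. That of *GDH3* was 0.67 with a normexp offset of 50 and 0.69 without background correction, both under the fold threshold. AT2G24800 passed the background call in 0 of 3 Col-0 arrays, so its r rests on Col-0 signals that were not measured above background and no fold is given. It averaged 5.91 ± 0.05 in the transformants and 4.90 ± 0.06 in Col-0 on the log2 scale (SD, n = 3 each). With 3 arrays a group, r mostly follows the group difference, and 623 of those probes had r above 0.95. Among the other DUF547 probes r with AT5G66600 was highest for A_84_P787170 of AT5G47380 (0.930) and lowest for the dim probe of the same gene (−0.572).

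Between 70.9% and 74.0% of the probe spots were well above background on each array, and 0 were saturated. None of the spots of the 10 DUF547 probes was marked as an outlier. All 33 probes of 4 markers of green aerial tissue (*RBCS1A*, *LHCB1.3*, *RCA* and *LHCB2.1*) passed the background call on all arrays. Of 5 root markers, *EXPA7* and *EXPA18* were above it on no array and *CASP2* on every array. *COBL9* was above it on 1 of 3 arrays of each group. *CASP1* was above it on 2 of 3 arrays of the transformants and 3 of 3 of Col-0. The deposited log2 values of these root markers were taken back to a linear scale and summed. The sum was 159 to 168 in the transformants and 138 to 168 in Col-0. These values are corrected and normalized, so they are not on the scale of the spot signals given for AT5G66600. The 7 probes of 5 floral markers (*AP1*, *AP3*, *PI*, *AG* and *SEP3*) were well above background throughout. Their sum, made in the same way, was 4815 to 6927 in the transformants and 6112 to 8941 in Col-0. It counts *AG* and *SEP3* by 2 probes each. The log2 fold changes of the floral probes ran from −0.91 for *SEP3* to 0.55 for *AG*. Both *SEP3* probes were lower in the transformants without overlap (−0.91 and −0.78, limma adjusted P = 0.122 and 0.209). Both *AG* probes were higher (0.55 with overlap and 0.53 without). Among the Col-0 arrays, replicate 1 had the highest value in every floral probe. Whether this bears on the changes seen when that array was omitted was not tested. None of the marker probes was a DEP, and the part of floral tissue in the values above was not tested.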

How the data were processed

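All 6 arrays were used, grouped by the genotype and replicate in the sample labels. The intensity values deposited by the authors are median spot and local background signals from Feature Extraction 10.7.1.1, together with a processed intensity that the scanner software had background-subtracted and detrended. The log2 table deposited by the authors results from the normexp and quantile methods of limma. The same steps over all spots, with an offset of 0 and quantile normalization before taking logarithms, gave values that differed by at most 5e-09. This log2 table was fitted here, with 1 row for each of 43603 probes and no control probe, with lmFit and eBayes of limma 3.58.1 in R 4.3.3, without a filter. P was adjusted by Benjamini-Hochberg over all probes. The pipeline was tested on simulated arrays, but no outcome of that test is given here. The number of arrays limits the precision. Accessions gave 1 gene for 34358 probes through the RefSeq table of TAIR10.1. Coordinates were not used beyond gene order, because the array names another build. The probe sequence was taken from the supplementary tables of the study.

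The members, lists and tests were chosen with earlier results of these data known. Named genes were the 9 loci, the 5 genes on each side of AT5G66600, and the 5 genes most like it over the arrays. No further DUF547 locus was added, because the annotation used holds no domain names. Alternatives were the values recomputed from the spot signals without control spots, a normexp offset of 50, no background correction, the processed signal scaled to the 75th percentile, cyclic loess, no dim probes, a robust eBayes prior with an intensity trend, Student's test as the methods state it, slide or replicate number as a block, leaving out each array, and an adjusted P as threshold.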

Additional observations from a re-analysis of the deposited data

How the results depend on the processing

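AT5G66600 had a log2 fold change between 5.01 and 5.26 over the 16 alternatives, and between 5.07 and 5.24 on omission of single arrays. In every one of them 0 probes of the other loci were DEPs, including when each array was left out (0 to 0). The count of DEPs over all probes, 509 with the deposited values, was 322 with a normexp offset of 50, 320 without background correction, 927 with the scaled processed signal, 123 with an adjusted P as threshold, and between 444 and 1060 with each array left out. Probes past an adjusted P of 0.05, 230 with the deposited values, numbered 1564 with the offset of 50, 1520 without background correction, 1347 with the filter on dim probes, 1387 with the intensity trend and robust prior, 1018 with the slide as a block, 0 with the methods' t-test (where 8076 probes had an unadjusted P under 0.05), and between 1 and 2684 with each array left out.

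With the replicate number as a block, 584 probes were DEPs and 1 had an adjusted P under 0.05. The labels do not say what a number shares, but the arrays of replicate 1 had a slide to themselves. Deviations of same-numbered arrays correlated by 0.261, 0.0971 and 0.0130 for numbers 1, 2 and 3. For number 1, a shared number and a shared slide cannot be told apart. Not every array correlated best with its own number, and the numbers were not taken as pairs. Differences near 0 changed direction. The dim probe of AT5G47380 was at 0.013 without background correction. AT4G37080 was at −0.0089 with cyclic loess and between −0.14 and 0.22 with each array left out. With the scaled processed signal 2 probes of *PSBO1* were at 0.11 and 0.12 and AT5G66580 at 0.00041. On omission of single arrays AT5G66580 lay between −0.082 and 0.068, and the *PSBO1* probes between −0.13 and 0.033 (A_84_P15060), −0.11 and 0.025 (A_84_P808897), and −0.0016 and 0.12 (A_84_P855937). AT5G66590 had adjusted P of 0.0501 with the scaled processed signal, 0.104 with the methods' t-test and 0.117 with the replicate block. With the other processing settings and the slide block its limma adjusted P stayed under 0.05. The range was 0.0088 (intensity trend and robust prior) to 0.0468 (recomputed values).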
